A study of Mus musculus with 4 samples.

Results

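Immediate-early genes are transcribed within minutes of T-cell receptor (TCR) stimulation, from factors already present in the cell. The 10 immediate-early transcription factors described here were fixed by name as 3 families: the orphan nuclear receptors *Nr4a1*, *Nr4a2* and *Nr4a3*, the zinc finger factors *Egr1*, *Egr2* and *Egr3*, and the AP-1 subunits *Fos*, *Fosb*, *Jun* and *Junb*. They are 10 of the 47729 gene rows counted in sorted regulatory T (Treg) cells. All 10 were counted in every library and all 10 were among the 12536 genes tested. The data were 4 libraries of CD25+YFP+ Treg cells, all from mice with the *Foxp3* YFP-Cre/+ allele, of which 2 had intact *Tfrc* (+/+, WT) and 2 floxed *Tfrc* (fl/fl, labelled TfR1-deficient), compared to ask what the transferrin receptor TfR1 does for Treg cells. Replicates are named by genotype and label below. Both genotypes were on the C57BL/6 strain and the labels give the spleen as the source, to which the study's own description adds the lymph nodes. The mice were female and, by the study's general statement on its animals, age-matched young adults. Whether animals were pooled was not stated. The Cre is made from the *Foxp3* locus on the X chromosome, so in heterozygous females YFP+ cells arise beside Treg cells that make no Cre, and the sorted cells matured with undeleted Treg cells in the same animal.

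The TCR acts on these genes through calcium and calcineurin, which free NFAT and MEF2, and through the ERK kinases, which act on SRF and its partners and on CREB. NR4A proteins bind DNA without a known activating ligand and serve as a readout of TCR signal strength. In Treg cells they help to keep *Foxp3* expressed. EGR2 and EGR3 restrain T-cell activation and EGR1 is a general growth response factor. FOS and JUN proteins pair through leucine zippers into AP-1, and JUNB pairs in addition with BATF in Treg cells. The RNAs of these genes are short-lived, and handling of tissue and sorting of cells can induce several of them.

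Totals ran from 10841939 to 17278448 counts per library. *Tfrc*, the floxed gene, was at 50.8 and 54.1 CPM (counts scaled to a common library size) in WT and at 56.1 and 48.3 CPM in those labelled TfR1-deficient (log2 fold change -0.01, standard error 0.16, adjusted p = 0.999, edgeR), so summed over the gene its counts overlapped between genotypes and each direction below rests on the labels. The Treg genes *Foxp3*, *Il2ra*, *Cd4*, *Cd3e*, *Ctla4* and *Ikzf2* summed to 4118 and 3761 CPM in WT and to 3206 and 2851 CPM in those labelled TfR1-deficient, lower without overlap. Within this list the log2 fold changes of *Ctla4* (-0.81), *Foxp3* (-0.46), *Cd4* (-0.44) and *Cd3e* (-0.43, unadjusted p = 0.038, edgeR) lay below the median of the 10 factors given later. Those of *Il2ra* (-0.22), the leading gene, and *Ikzf2* (-0.26) lay above it. The part of the lower Treg sum in the values of the 10 factors was not tested. A list of 14 macrophage genes summed to 946 and 86.2 CPM in the WT replicates 1 and 2, and to 59.5 and 2938 CPM in the TfR1-deficient replicates 1 and 2. The leading gene was *Vcam1*, and of the 14 genes 0 were at 0 in all libraries. The 6 proliferation genes summed to 987 and 412 CPM in the WT replicates and to 427 and 899 CPM in the TfR1-deficient replicates, in the same order. Each genotype thus held 1 library with many and 1 with few macrophage transcripts. In bulk libraries, fewer cells that express a gene and less RNA per cell cannot be told apart.

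The promoters of these genes are shown because CREB and SRF are known to act through promoter sequences of immediate-early genes. RefSeq (GRCm38.p6) start sites were at hand for 8 members, all but *Egr1* and *Egr3*. The letters searched in the 250 bases before the start, on both strands, were TGACG (the core of a cAMP response element, CRE), TGACGTCA (the full palindromic CRE), TGCGTCA (a CRE variant, which always holds TGACG on its other strand), TGANTCA (AP-1), GCGNGGGCG (EGR), AAAGGTCA (NR4A) and the CArG box of SRF. The TATA box letters TATAAA were searched on the gene's strand only. Each line below runs from 5′ to 3′ in the direction of transcription, with TGACG on either strand in capitals.
*Nr4a1* (chr15:101266596-101266845, plus strand): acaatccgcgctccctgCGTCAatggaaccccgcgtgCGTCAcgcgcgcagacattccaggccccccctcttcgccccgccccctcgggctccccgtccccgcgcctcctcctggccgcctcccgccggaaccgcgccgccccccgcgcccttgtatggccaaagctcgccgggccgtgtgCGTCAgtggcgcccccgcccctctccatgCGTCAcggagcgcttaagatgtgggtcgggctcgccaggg
*Nr4a2* (chr2:57124004-57124253, minus strand): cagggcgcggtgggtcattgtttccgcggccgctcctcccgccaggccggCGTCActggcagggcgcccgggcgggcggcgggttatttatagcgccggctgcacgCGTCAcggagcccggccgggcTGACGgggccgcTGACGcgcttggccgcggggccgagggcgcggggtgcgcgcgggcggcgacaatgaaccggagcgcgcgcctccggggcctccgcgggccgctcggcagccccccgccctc
*Fos* (chr12:85473640-85473889, plus strand): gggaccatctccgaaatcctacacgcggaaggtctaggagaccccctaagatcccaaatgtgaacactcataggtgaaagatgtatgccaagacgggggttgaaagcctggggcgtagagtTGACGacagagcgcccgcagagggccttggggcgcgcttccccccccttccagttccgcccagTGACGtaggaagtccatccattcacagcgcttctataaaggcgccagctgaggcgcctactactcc
*Junb* (chr8:84978749-84978998, minus strand): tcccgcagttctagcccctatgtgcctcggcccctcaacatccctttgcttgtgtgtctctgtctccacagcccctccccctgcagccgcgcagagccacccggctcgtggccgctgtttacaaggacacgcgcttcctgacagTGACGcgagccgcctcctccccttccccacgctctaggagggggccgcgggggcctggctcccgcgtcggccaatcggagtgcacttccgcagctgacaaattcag

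For *Nr4a3* and *Egr2* a stretch of 30 bases is shown, which holds matches; in *Egr2* the capitals mark a CArG box and then a CRE core.
*Nr4a3* (chr4:48045067-48045096, plus strand): aggagggTGACGtagcgtcccatgtCGTCA
*Egr2* (chr10:67537789-67537818, plus strand): tcctcagtCCATATATGGgcagcgaCGTCA

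TGACG lay within 250 bases before a start of 7 of the 8 members with a sequence, all but *Jun*, and of 19.8% of the 27025 genes with a RefSeq start. *Nr4a1*, *Nr4a2* and *Nr4a3* held 4 copies each, and in *Nr4a1* all 4 were the variant TGCGTCA, which 1.998% of genes hold. *Fosb* was the other member with TGCGTCA. The CArG box was found in *Egr2*, against 1.62% of genes. Sequence further upstream than 250 bases was not searched, so the absence of any match holds for this window only. The EGR letters were in *Nr4a1*, *Nr4a2* and *Fosb* (5.33% of genes), and the full CRE (1.77%), the AP-1 letters (7.82%) and the NR4A letters (1.55%) were in 0 of the 8. TATAAA was found in *Fos* and in 8.94% of genes. These windows were rich in G and C, from 54.0% to 80.0% over the 12 start sites of the members, where the median of all start sites was 52.4%. A match of letters is a description of the sequence and no evidence that a factor binds.

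Per kilobase of exon the 10 genes covered a wide range of levels. *Junb* stood highest in every library, at 3108 and 2831 CPM per kb in WT and 2377 and 2561 CPM per kb in those labelled TfR1-deficient. *Nr4a1* followed at 359 and 636 CPM per kb in WT and *Fos* at 235 and 231 CPM per kb. *Egr2* (37.6 and 42.3 CPM per kb) and *Jun* (31.6 and 33.1 CPM per kb) came next in WT, but their ranges overlapped in the libraries labelled TfR1-deficient, where *Jun* was at 19.97 and 42.2 CPM per kb and *Egr2* at 31.9 and 30.1 CPM per kb. *Egr1* lay near 11 CPM per kb in all 4 libraries (10.6 to 11.7). *Nr4a2*, *Nr4a3* and *Fosb* could not be ordered, since their WT levels of 3.81 to 5.66, 4.50 to 4.63 and 2.09 to 5.20 CPM per kb overlapped. *Egr3* was lowest, at 1.67 and 1.40 CPM per kb in WT. Within the NR4A family, *Nr4a1* therefore made up nearly all of the RNA, while the EGR family was led by *Egr2*.

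**Figure D1:**
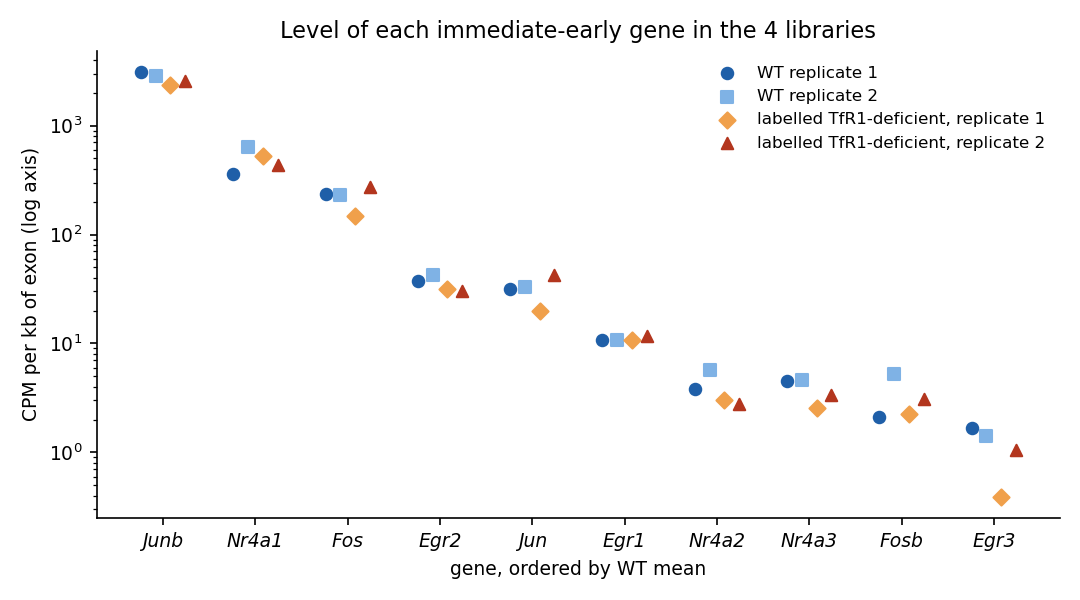
Level of each of the 10 genes in CPM per kb of exon (log axis), 1 point per library, genes ordered by their WT mean. *Junb* lies at or above 2377 CPM per kb in all libraries and *Egr3* at or below 1.67 CPM per kb.

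The question put to these 10 genes was whether their RNA differed between the genotypes. In edgeR's quasi-likelihood test, adjusted by Benjamini-Hochberg over all 12536 genes, 0 of the 10 were lower and 0 higher at an adjusted p-value under 0.05 with a log2 fold change of 0.5 or more in size, and the same held for all genes (0% lower and 0% higher). DESeq2 called 0 of the 10 as well, and 33 lower and 6 higher genes among all. With the p-value left unadjusted (threshold 0.05, change of 0.5 or more), 1 of the 10 (*Nr4a3*) was lower, where 2.48% of all genes tested were, and 0 were higher, where 1.6% of all genes were. This split of 311 lower and 200 higher genes became 264 and 239 with total library size as the only scaling. The log2 fold change was below 0 in 9 of the 10 and in 48.9% of all genes. The median over the 10 was -0.32, against 0.01 over all genes tested. In 5 of the 10 (*Nr4a2*, *Nr4a3*, *Egr2*, *Egr3* and *Junb*) every WT library exceeded the pair labelled TfR1-deficient, which was so for 18.9% of all genes, and in *Egr1* every WT library was exceeded, as in 16% of all genes. The 10 were chosen with earlier results of these data known, so their shared direction is not independent evidence. With 2 libraries against 2, the smallest value of an exact permutation test on any gene is p = 0.3333. The mean level of the 10 genes varied between replicates by 0.23 (SD, log2 scale), and their median log2 fold change grew to -0.64 when TfR1-deficient replicate 2 was omitted and shrank to -0.19 when TfR1-deficient replicate 1 was, with -0.41 and -0.22 for the omission of WT replicates 1 and 2.

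**Figure D2:**
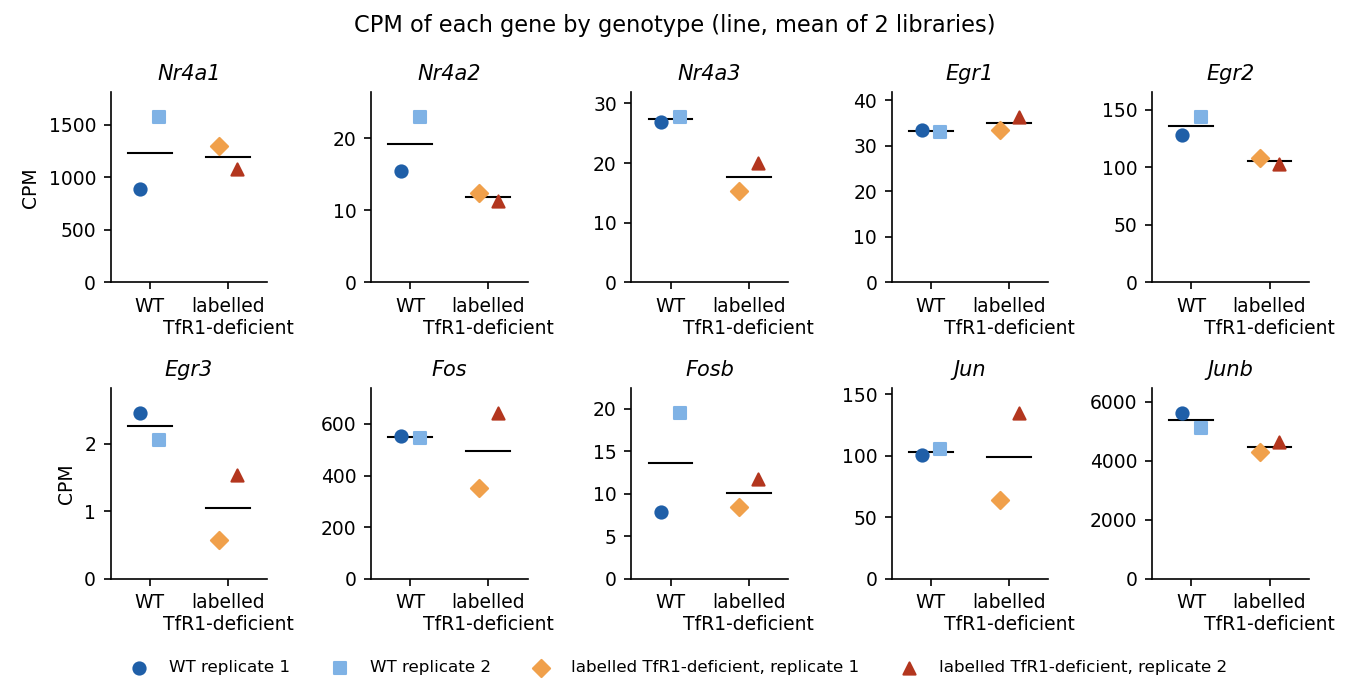
CPM of each gene in the WT libraries and the libraries labelled TfR1-deficient, on axes from 0; points are libraries and lines are means of 2. The genotypes do not overlap in *Nr4a2*, *Nr4a3*, *Egr2*, *Egr3*, *Junb* and, in the other direction, *Egr1*.

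Among the nuclear receptors, the low-level members *Nr4a2* and *Nr4a3* had less RNA in either library labelled TfR1-deficient than in WT, and the abundant *Nr4a1* (Nur77), the receptor whose reporter is used to follow TCR signals, did not. *Nr4a1* (chromosome 15, 101253902 to 101274795, GRCm38.p6) was at 889 and 1574 CPM in WT and at 1301 and 1080 CPM in those labelled TfR1-deficient. Both of the latter lay between the WT libraries, whose own difference (0.82 on the log2 scale) was far larger than the one between genotypes, a log2 fold change of -0.05 (standard error 0.30, adjusted p = 0.994, edgeR). The change turned to 0.42 without WT replicate 2 and to 0.08 without TfR1-deficient replicate 2.

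*Nr4a3* (Nor1; chromosome 4, 48045078 to 48086447) was at 26.9 and 27.7 CPM in WT and 15.3 and 20.003 CPM in those labelled TfR1-deficient. The WT libraries were nearly equal and both others were clearly below them, 27.3 ± 0.576 against 17.7 ± 3.31 CPM (SD, n = 2 each). The log2 fold change was -0.63 (standard error 0.23, unadjusted p = 0.040, adjusted p = 0.911, edgeR). The difference stayed between -0.84 and -0.42 with each library left out, and its unadjusted p-value was under 0.05 without TfR1-deficient replicate 2 (0.033) but not without any of the other libraries (0.115 to 0.247).

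*Nr4a2* (Nurr1; chromosome 2, 57106830 to 57124003) was at 15.5 and 23.0 CPM in WT and 12.4 and 11.3 CPM in those labelled TfR1-deficient. The WT libraries differed from each other more than the lower of them differed from the others. Its log2 fold change was -0.70 (standard error 0.29, unadjusted p = 0.061, adjusted p = 0.911, edgeR), which just missed the unadjusted threshold, and it was -0.39 without WT replicate 2 and -0.94 without WT replicate 1 (unadjusted p = 0.033). As *Nr4a1* outweighed both, the summed CPM of the family, 931 and 1625 in WT against 1328 and 1112, overlapped between genotypes.

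Among the EGR factors the order of the genotypes differed by gene. *Egr2* (Krox20; chromosome 10, 67534469 to 67542188) was at 128 and 144 CPM in WT and 108 and 102 CPM in those labelled TfR1-deficient. It was lower in both, with small spread within each genotype (136 ± 11.3 against 105 ± 4.22 CPM, SD, n = 2 each). The log2 fold change of -0.37 (standard error 0.14, unadjusted p = 0.048, adjusted p = 0.911, edgeR) was under the minimum change of 0.5, so *Egr2* was not counted among the lower genes. It ran from -0.43 to -0.28 with each library left out.

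*Egr3* (chromosome 14, 70077317 to 70082613) rested on few reads, with 30 and 22 counts in WT and 10 and 21 counts in the libraries labelled TfR1-deficient, or 2.46 and 2.06 against 0.576 and 1.53 CPM. Both libraries labelled TfR1-deficient were lower, TfR1-deficient replicate 1 by far the most. Its log2 fold change of -1.11 was the largest of the 10, but so was its standard error of 0.65 (adjusted p = 0.934, edgeR). Counting error alone amounted to a standard error of 0.34, and without TfR1-deficient replicate 1 the change was -0.53, whereas without TfR1-deficient replicate 2 it was -1.96. *Egr1* (chromosome 18, 34861207 to 34864956) was at 33.4 and 33.0 CPM in WT and 33.5 and 36.4 CPM in the others. All 4 libraries lay close together. It was the one member with a positive log2 fold change, 0.07 (standard error 0.17, adjusted p = 0.983, edgeR).

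Of the AP-1 subunits, *Junb* was modestly lower in both libraries labelled TfR1-deficient, while *Fos*, *Jun* and *Fosb* varied between the libraries of a genotype. *Junb* (chromosome 8, 84976909 to 84978748) was at 5616 and 5116 CPM in WT and 4295 and 4627 CPM in those labelled TfR1-deficient, the most abundant of the 10 in each. The groups did not overlap. The difference, 5366 ± 353 against 4461 ± 235 CPM (SD, n = 2 each), corresponded to a log2 fold change of -0.27 (standard error 0.14, unadjusted p = 0.109, adjusted p = 0.911, edgeR) and ran from -0.34 to -0.18 with each library left out.

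*Fos* (chromosome 12, 85473890 to 85477274) was at 554 and 544 CPM in WT and 350 and 642 CPM in those labelled TfR1-deficient. *Jun* (chromosome 4, 95049036 to 95052222) was at 101 and 106 CPM in WT and 63.7 and 135 CPM in the others. For both genes the WT libraries were nearly equal and the libraries labelled TfR1-deficient lay on either side of them, so that the log2 fold changes of -0.15 for *Fos* (standard error 0.30) and -0.06 for *Jun* (standard error 0.36) were smaller than their errors. Without TfR1-deficient replicate 2 they were -0.65 and -0.70 (unadjusted p = 0.026 and 0.021, edgeR), and without TfR1-deficient replicate 1 they were 0.26 and 0.42. *Fosb* (chromosome 7, 19302696 to 19310118) was at 7.86 and 19.5 CPM in WT and 8.47 and 11.7 CPM in the others, with WT replicate 2 standing apart. Its log2 fold change was -0.44 (standard error 0.49) and 0.35 without that library, against -0.93 without WT replicate 1.

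The level of macrophage transcripts differed within each genotype, so each library labelled TfR1-deficient was set beside the WT library on the same side of that split, a choice made after the data were seen and with no test. The pair with few macrophage transcripts had sums of 59.5 and 86.2 CPM, but the pair with many was not alike, at 2938 CPM in TfR1-deficient replicate 2 and 946 CPM in WT replicate 1. TfR1-deficient replicate 1 against WT replicate 2, both low in macrophage genes, had 9 of the 10 genes below 0 with a median log2 ratio of -0.68, where 49% of all genes were below 0. TfR1-deficient replicate 2 against WT replicate 1, both high in macrophage genes, had 5 of the 10 below 0 with a median of -0.08, where 50.5% of all genes were. *Nr4a2* (-0.89 and -0.45), *Nr4a3* (-0.86 and -0.43), *Egr2* (-0.41 and -0.32), *Egr3* (-1.84 and -0.68) and *Junb* (-0.25 and -0.28) were below 0 in both, as their lack of overlap requires. *Nr4a1* (-0.28 and 0.28), *Fos* (-0.64 and 0.21), *Jun* (-0.73 and 0.42) and *Fosb* (-1.20 and 0.57) changed sign. The log2 ratios of replicate 2 over replicate 1 were -0.02 for *Fos* and 0.07 for *Jun* in WT. In the libraries labelled TfR1-deficient they were 0.87 and 1.08. The part of macrophage RNA in these values was not tested.

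**Figure D3:**
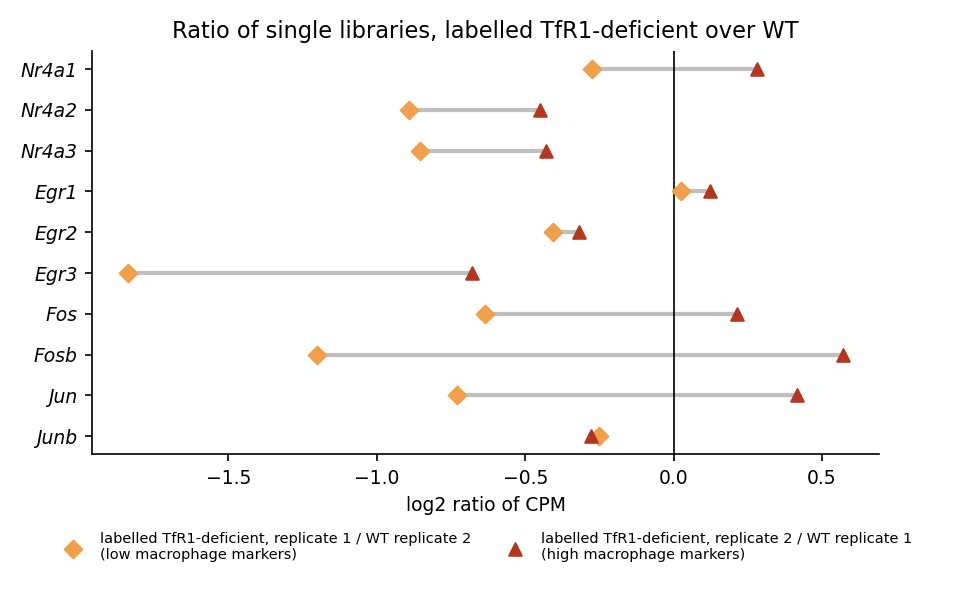
Log2 ratio of CPM, library labelled TfR1-deficient over WT library, for the pair with few macrophage transcripts (diamonds) and the pair with many (triangles). In *Nr4a1*, *Fos*, *Fosb* and *Jun* the 2 ratios lie on opposite sides of 0, and in *Junb* they are nearly equal at -0.25 and -0.28.

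The genes around these factors were taken from lists fixed by name. None was called at an adjusted p-value under 0.05 in edgeR, and DESeq2 called *Ctla4* and *Bhlhe40* (adjusted p = 7.28e-04 and 0.00155) out of all lists. Of the 24 genes of the signalling steps upstream (NFAT, calcineurin, ERK, SRF partners, MEF2), 23 were tested. A log2 fold change below 0 was found in 12, against 48.9% of all genes tested, and the median was -0.01. By the unadjusted criterion 1 was lower and 0 higher, where 2.48% and 1.6% of all genes were. Leaving out TfR1-deficient replicate 1 gave -0.12, TfR1-deficient replicate 2 gave 0.14 and WT replicate 2 gave 0.28. The 1 lower gene was *Mkl1*, an actin-regulated coactivator of SRF, at 197 and 170 CPM in WT and 118 and 113 CPM in those labelled TfR1-deficient (log2 fold change -0.67, standard error 0.15, adjusted p = 0.911, edgeR). *Nfatc1*, named after its values were seen, was lower without overlap, at 303 and 293 against 216 and 216 CPM. Its log2 fold change of -0.46 (unadjusted p = 0.015, edgeR) was under the minimum change of 0.5.

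Of 30 other immediate-early genes 27 were tested, 5 passed the unadjusted criterion as lower and 0 as higher, where 2.48% and 1.6% of all genes did. The median was -0.21, and -0.05 without WT replicate 2. The largest differences were those of *Gadd45b*, a stress-induced activator of p38 signalling (61.6 and 36.5 against 17.6 and 24.9 CPM, log2 fold change -1.21), of *Csrnp1* (416 and 287 against 156 and 216 CPM, -0.92) and of *Tnfaip3*, the NF-kB inhibitor A20 (637 and 816 against 544 and 362 CPM, -0.68), each at an adjusted p = 0.911 (edgeR). In each the groups did not overlap. *Ier2*, named after its values were seen, was higher in both libraries labelled TfR1-deficient, at 662 and 715 CPM against 549 and 433 CPM (0.49, unadjusted p = 0.033, edgeR). Of 10 further AP-1 and small Maf genes 7 were tested. By the unadjusted criterion 1, *Mafk*, was lower (51.2 and 54.6 against 34.3 and 33.4 CPM, log2 fold change -0.64), where 2.48% of all genes were. The median of this list was -0.17, but 0.04 without TfR1-deficient replicate 1 and -0.54 without TfR1-deficient replicate 2.

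Of 28 TCR-induced targets and feedback genes 25 were tested, 5 passed the unadjusted criterion as lower and 0 as higher, against the same 2.48% and 1.6% of all genes. A log2 fold change below 0 was found in 21, against 48.9% of all genes tested, and the median was -0.34. In 15 of the 25 every WT library exceeded the pair labelled TfR1-deficient, and in 0 the order was the opposite, against 18.9% and 16% of all genes tested. The median ran from -0.39 to -0.27 with each library left out. The leading genes were the repressor *Bhlhe40* (log2 fold change -1.49, standard error 0.29; 157 and 188 against 78.0 and 45.2 CPM), the effector Treg factor *Irf4* (-0.98, standard error 0.37; 61.4 and 29.9 against 21.3 and 25.2 CPM) and the inhibitory receptor *Ctla4* (-0.81, standard error 0.13; 407 and 427 against 241 and 235 CPM), each at an adjusted p = 0.911 (edgeR). The list was drawn up with earlier results of these data known, so its direction is not independent evidence, and *Ctla4*, *Il2ra* and *Ikzf2* are also in the Treg list above.

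Heat shock genes, which respond to handling of cells, were listed beside them. Of the 13, 12 were tested and all 12 were below 0, where 48.9% of all genes tested were, with a median of -0.15. Leaving out TfR1-deficient replicate 1 turned that median to 0.12, while the omission of WT replicate 2 gave -0.35 and that of TfR1-deficient replicate 2 gave -0.44. *Hspa8*, the most abundant of them, was named after its values were seen. It was at 4684 and 3391 CPM in WT and 3109 and 4661 CPM in those labelled TfR1-deficient, so the genotypes overlapped. By the unadjusted criterion 1 gene of the list was lower, where 2.48% of all genes were. It was *Hspa1b* (1.72 and 1.97 against 0.634 and 0.292 CPM), which is uncertain. *Hspa1b* shares most of its sequence with *Hspa1a* and rests on 4 to 21 counts per library. *Dnaja1*, named after its values were seen, was lower without overlap, at 711 and 625 against 455 and 540 CPM. Its log2 fold change of -0.43 (unadjusted p = 0.043, edgeR) was under the minimum change of 0.5. The part of handling in the values of the 10 factors was not tested.

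**Figure D4:**
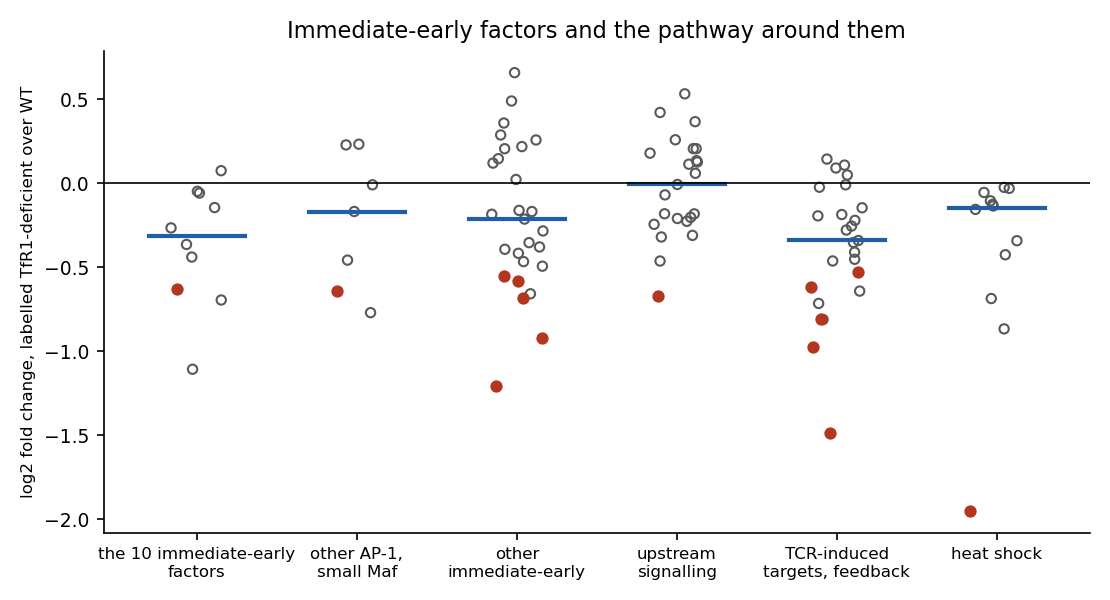
Log2 fold change (libraries labelled TfR1-deficient over WT) of each tested gene in the 10 immediate-early factors and 5 lists around them; filled points pass an unadjusted p-value under 0.05 with a minimum change of 0.5, and bars are medians. The medians are -0.32 for the 10 factors, -0.34 for the TCR-induced targets and -0.01 for the upstream signalling genes, with no test between lists.

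Other genes with the closest profiles over the 4 libraries were found by the Euclidean distance of log2 CPM, centred on the 4 libraries, from each family's mean. They were *Acvr1b*, *Hspb11* and *Tgfbr3* for NR4A (distances 0.02 to 0.08), *St8sia1*, *Cdkn1b* and *Rnf141* for EGR (0.02 to 0.06), *Ccdc51*, *C77080* and *Mast1* for FOS (0.06 to 0.11), and *Fasl* and the pseudogenes *Rpl23a-ps3* and *Gm14336* for JUN (0.04 to 0.08). With 4 libraries and 12536 genes such closeness is a description only, and reads on pseudogenes may stem from their parent genes.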

How the data were processed

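RNA of CD25+YFP+ Treg cells was measured in 4 libraries prepared by NEBNext Single Cell/Low Input chemistry. The authors deposited whole-number read counts per Ensembl gene, not normalized. Per the submitters' processing notes, reads were trimmed with Trim Galore 0.6.7, mapped to mm10 with STAR 2.7.9a and counted with featureCounts, whereas the paper's methods name mm9; 14930 of the 47729 identifiers are absent from the mm9 annotation GENCODE vM1. Coordinates are those of RefSeq on GRCm38.p6 (mm10), used for position only, and exon lengths are from GENCODE vM1. The strand setting and the annotation release were not given in the sources used here, so reads of antisense transcripts cannot be told apart.

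From these counts, 12536 genes passed filterByExpr and entered a quasi-likelihood fit on genotype alone in edgeR 4.0.16 (R 4.3.3) after TMM scaling, with p-values adjusted by Benjamini-Hochberg over these genes, a threshold of 0.05 and a minimum absolute log2 fold change of 0.5. CPM values are scaled by TMM, log2 CPM uses a prior count of 2, and standard errors were derived from the log2 fold change and its F statistic. The study calls the 2 libraries per genotype biological replicates. The p-values set the difference between genotypes against the spread between replicates, which was estimated with information shared across genes. Alternatives were DESeq2 1.42.0, other scalings and filters, a replicate block and the omission of each library. The fit was tested on simulated data. The members, the lists and the rule for named genes (every member, and up to 3 genes per direction and list at the unadjusted threshold) were chosen with earlier results of these data known. Of 162 list genes, 162 were matched to an identifier. Markers of B, CD8 T, NK, dendritic, erythroid and granulocytic cells and of platelets summed to at most 44.1, 12.6, 3.36, 7.12, 277, 5.55 and 3.28 CPM in any library.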

Additional observations from a re-analysis of the deposited data

How the results depend on the processing

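The adjusted calls of the 10 factors did not depend on the processing: 0 of the 10 passed with DESeq2, DESeq2 size factors, total library size, no count filter, at least 10 counts in every library, the replicate block or any library left out, and the lowest adjusted p-value of a member in any of these was 0.790. At the unadjusted p-value the 1 lower member became 0 when scaled by total library size, under the filter of 10 counts in every library and with the replicate block, and it ranged from 0 to 3 with each library left out, with 0 without WT replicate 2 or TfR1-deficient replicate 1 and 3 (*Nr4a3*, *Fos* and *Jun*) without TfR1-deficient replicate 2. Fits with 3 libraries assume that the lone library of a genotype varies like the others. The median of the 10 ran from -0.64 to -0.19 with each library left out, and was -0.68 over 9 genes below 0 of 10 in the single-library ratio of the low-macrophage pair, which was added after the data were seen. The other scalings and filters gave medians of -0.30 to -0.28 and 5 members lower in both libraries labelled TfR1-deficient, as reported.

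Reversed signs fell in *Nr4a1*, *Fos*, *Fosb* and *Jun*, and came from the replicate block or from leaving out a library. *Nr4a1* was 0.0030 with the replicate block and ran from -0.39 to 0.42 with each library left out, *Fos* from -0.65 to 0.26, *Fosb* from -0.93 to 0.35 and *Jun* from -0.70 to 0.42. In 94 of 100 alternatives of single members the sign was that of the reported value. DESeq2 and the other scalings and filters refit the same libraries, so their shared sign says little about how firm a direction is.

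Over all genes, DESeq2 gave 6 higher and 33 lower genes at the adjusted p-value and the unfiltered edgeR fit 167 and 95, where the filtered fit gave 0 and 0 (200 and 311 at the unadjusted p-value). Without a filter 650 genes were higher at the unadjusted p-value, and the replicate block left 70 higher and 141 lower. With each library left out, 169 to 353 were higher, the most without TfR1-deficient replicate 1, and 131 to 382 lower, the fewest without WT replicate 1. The cause was not tested. The deviations of same-numbered libraries correlated at -0.61 across genes. Whether same-numbered libraries were prepared together was not stated, and this value cannot decide it. A crossed replicate block was added after the data were seen. It gave 150 higher and 210 lower genes at the adjusted p-value, 596 and 519 at the unadjusted one, and 2 lower members at the unadjusted one. Depth limited only *Egr3* among the 10, whose counting error was more than 0.3 on the log2 scale.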
